A study of Mus musculus with 95 samples.

Results

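T cell segments of the medulla were compared with T cell segments of the cortex in normal thymus. The series measured RNA in 95 small areas of fixed, embedded mouse thymus, called segments, with a GeoMx whole-transcriptome probe set. Each segment was the part of a chosen region that lit up under a fluorescent mask, for CD3 (T cells), pan-cytokeratin (epithelium) or B220 (B cells). The segments compared here were those that the labels call medullary or cortical T cells in the 3 control mice that had both kinds, 11 medullary and 10 cortical, so 21 of the 95. Mouse 1057 was Gtf2ifl/fl and gave 5 medullary and 4 cortical segments. Mice 1172 and 1143 were Gtf2ifl/wt and gave 3 medullary and 3 cortical segments each. The labels list no Cre for any of the 3 mice, so all of them carried a floxed Gtf2i allele without the Foxn1-Cre of the thymoma mice, and they state no age. The sample titles name mice 1172 and 1143 as a pair, and 1057 in another pair with 1059. A pair was read as a shared slide, which is an inference from the titles. The genotype of these controls and this pairing cannot be told apart. Another control, 1059 (Gtf2ifl/fl, paired with 1057 in the titles), had 3 cortical and no medullary T cell segments and entered no test.

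The thymus makes T cells in 2 zones. In the cortex, densely packed immature thymocytes that carry both CD4 and CD8 rearrange their T cell receptor and are kept only if it binds self peptide on cortical epithelium. Survivors move to the medulla as mature thymocytes with either CD4 or CD8, where medullary epithelium, dendritic cells and B cells show them tissue antigens and strongly self-reactive cells are deleted or turned into regulatory T cells. CD3, the signalling part of the T cell receptor, is present in both zones and stronger on mature cells, and a CD3 mask drawn on tissue also takes in whatever lies above, below or between the T cells.

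Probes are named by the ID under which they were counted. The tables used here do not pair these IDs with genes, so the labels could not be checked against marker genes of cortical or mature thymocytes, the genes behind the masks (CD3, keratins, B220) could not be set aside, and no role can be given to any probe. What can be described is how many probes differed between the zones, by how much, how evenly over mice and segments, and how the same probes behaved under the other masks. Only 4 probes are given by ID.

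The medullary segments were the smaller ones. They held 55900 to 3595278 counts under 665 to 3344 nuclei, against 155626 to 12551297 counts under 2503 to 8344 nuclei in the cortical segments. Summed over segments, the medullary libraries of mice 1057, 1172 and 1143 held 7674956, 6407318 and 350028 counts, and their cortical libraries 36879809, 19480613 and 874379. Libraries of mouse 1143 were shallow: its 6 T cell segments gave 49.5 to 82.2 counts per nucleus, and the 15 segments of mice 1057 and 1172 gave 690 to 1516. A floor of 3 counts corresponds to 8.57 CPM (counts scaled to the same library total) in its medullary library and to 0.0813 CPM in the deepest cortical library, for counting error only. Values of single segments of this mouse are therefore coarse.

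Medullary T cell segments yielded fewer counts per nucleus than cortical ones in each mouse. Mouse 1057 gave 1013 counts per nucleus in its medullary and 1399 in its cortical segments, mouse 1172 gave 783 and 998, and mouse 1143 gave 64.9 and 72.0. The medullary level was 0.725, 0.785 and 0.901 times the cortical one, lower in 3 of 3 mice, with a geometric mean of 0.800. An exact two-sided sign-flip permutation test over the 3 mice gave p = 0.25, the smallest value that 3 mice allow. Nuclei were also less dense under the medullary mask, at 0.916, 0.898 and 0.889 times the density under the cortical mask in mice 1057, 1172 and 1143. Every comparison of probes below is of shares of a library, so it does not see this difference in yield. In segments that pool many cells, fewer cells of a type and less RNA per cell cannot be told apart.

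Of 20174 probes tested over the 6 summed libraries with the mouse as a block, 1991 differed between the zones, which is 9.87% (quasi-likelihood test of edgeR, at a p below 0.05 after Benjamini-Hochberg adjustment). In medullary segments 952 were higher (4.72%) and 1039 lower (5.15%). Most of these differences were modest. Among the higher probes, 577 lay below 0.5 on the log2 scale, 322 between 0.5 and 1, and 53 between 1 and 2, with none above 2. Among the lower probes, 553 lay below 0.5 in size, 378 between 0.5 and 1, 100 between 1 and 2, and 8 above 2. The median change was 0.43 in the higher and -0.48 in the lower probes, against 0.01 over all probes tested, with a median standard error of 0.0943. The lower tail reached further, to -2.60, than the upper one, to 1.96. The count depended on single mice, at 2438 without shallow mouse 1143, 867 without mouse 1057 and 547 without mouse 1172. It was 0 when log2 CPM was averaged over segments of each mouse and zone in place of summing counts. At an unadjusted p below 0.05 that fit gave 646 (limma), fewer than the share of 0.05 expected when no probe differs.

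The 2 directions differed in where on the scale of levels they lay. The probes tested were divided into 5 equal parts by mean CPM over the 6 libraries. In the lowest part, up to 22.9 CPM, 160 probes were higher and 21 lower in medullary segments. In the highest part, from 53.8 CPM upward, 188 were higher and 580 lower, so called probes were more frequent there. Among the 100 probes of highest level, from 507 to 10352 CPM, 3 were higher and 18 lower. Probe affinity and background binding are part of a probe's level, so these levels rank probes and not transcripts.

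**Figure D1:**
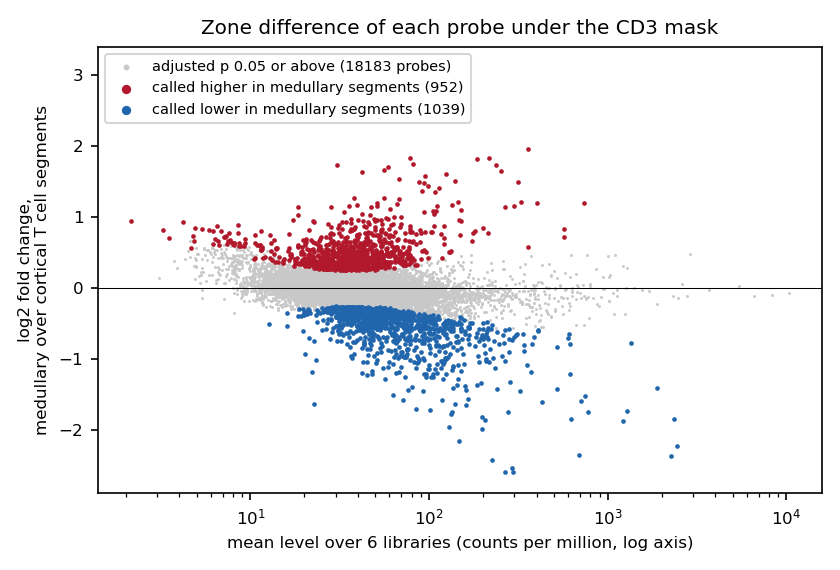
Log2 fold change of medullary over cortical T cell segments (vertical axis) against the mean level over the 6 libraries in CPM (horizontal log axis), 1 point per probe; red points passed the test as higher and blue points as lower in medullary segments. The 952 red points lie in all 5 parts of the scale of levels, 160 in the lowest and 188 in the highest part. The 1039 blue points reach further from 0, to -2.60, and include most of the called probes at high level.

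The 1039 lower probes took 8.93%, 6.40% and 6.30% of all counts in the medullary libraries of mice 1057, 1172 and 1143, against 13.4%, 11.5% and 12.8% in their cortical libraries. The 952 higher probes took 6.07%, 5.06% and 4.97% in medullary libraries and 3.47%, 3.34% and 3.27% in cortical ones. The test chose these probes, so the shares only describe how much of a library they make up. The share of the lower probes in medullary segments was highest in mouse 1057.

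Since segments of 1 mouse are not replicates, the spread between mice and between segments was looked at separately. The 3 medullary and 3 cortical libraries did not overlap for 1488 probes (7.38% of those tested), 844 with medullary libraries above and 644 below. Among the called probes this held for 289 of 952 higher and 348 of 1039 lower ones. The direction was the same in all 3 mice for 701 of the higher (73.6%) and 877 of the lower probes (84.4%), which the test had already selected, against 18.5% of all probes above 0 and 18.8% below 0 in all 3 mice. All 11 medullary segments lay apart from all 10 cortical ones for only 39 probes (0.193%), 27 above and 12 below, each of which was also called. Within each of the 3 mice taken singly, segments of both zones did not overlap for 238 probes (1.18%), 122 above and 116 below, of which 109 and 112 were called. Without mouse 1143 the count over all segments became 460, without mouse 1057 it became 182 and without mouse 1172 it became 110.

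The spread between segments of a mouse was uneven over mice. The median standard deviation of a probe over segments of 1 mouse, in log2 CPM, was 0.24, 0.15 and 0.78 in medullary segments of mice 1057, 1172 and 1143, against 0.10, 0.16 and 0.50 in their cortical segments. In mouse 1143 this spread exceeded, in both zones, the median change of the called probes in the fit over 3 mice. In mouse 1057 the medullary segments varied more than the cortical ones, and in mouse 1172 the values of both zones were close.

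The 2 probes with the largest and the 2 with the smallest change were taken from the 512 that passed the test, had a mean level above the median, moved the same way in all 3 mice and did not overlap between libraries.

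RTS0068345 was among the probes most raised in medullary T cell segments. Its level was 546, 234 and 260 CPM in the medullary libraries of mice 1057, 1172 and 1143, against 120, 73.1 and 72.1 CPM in their cortical libraries. All 11 medullary segments, from 215 to 667 CPM, lay above all 10 cortical segments, from 38.4 to 142 CPM. The means were 347 ± 173 CPM in medullary and 88.4 ± 27.4 CPM in cortical libraries (SD, n = 3 mice each), and the log2 fold change was 1.84 with a standard error of 0.177 (edgeR quasi-likelihood, adjusted p = 1.88e-10). The probe was higher still under the B220 mask, at 1637, 737, 768 and 604 CPM in B cell libraries of mice 1057, 1172, 1143 and 1059. Under the pan-cytokeratin mask it reached 798, 432 and 436 CPM in medullary epithelium, against 332, 160 and 183 CPM in cortical epithelium of mice 1057, 1172 and 1143. In both zones, T cell segments held less of this probe than the epithelium of the same mouse.

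RTS0068985 showed the zone difference with the smallest error among the 4. Its level was 102, 100.4 and 171 CPM in medullary libraries, against 26.5, 28.6 and 42.3 CPM in cortical libraries of mice 1057, 1172 and 1143. Segments of both zones did not overlap, with 76.7 CPM as the lowest medullary and 51.4 CPM as the highest cortical value. The log2 fold change was 1.83 with a standard error of 0.0968 (edgeR quasi-likelihood, adjusted p = 8.50e-18). In mouse 1143 the counts behind these values were few, 60 in all 3 medullary and 37 in all 3 cortical segments. In contrast to RTS0068345, it was not highest under the B220 mask, where the libraries held 73.1 to 157 CPM.

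RTS0068336 was among the probes most lowered in medullary segments. Its level was 164, 57.0 and 51.4 CPM in the medullary libraries of mice 1057, 1172 and 1143, against 570, 441 and 491 CPM in their cortical libraries, a log2 fold change of -2.60 with a standard error of 0.221 (edgeR quasi-likelihood, adjusted p = 9.33e-12). In mouse 1143 these values rest on 18 counts in all medullary and 429 in all cortical segments. Within every mouse the segments of both zones lay apart. Across mice they overlapped: medullary region 3 of mouse 1057 held 385 CPM and cortical region 8 of mouse 1172 held 218 CPM. The 5 medullary segments of mouse 1057 were uneven, at 75.8 and 92.6 CPM in regions 2 and 4 and at 385, 241 and 237 CPM in regions 3, 5 and 17.

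RTS0065523 followed the same course. It stood at 126, 61.3 and 28.6 CPM in the medullary libraries, against 504, 334 and 542 CPM in the cortical libraries of mice 1057, 1172 and 1143, with a log2 fold change of -2.60 and a standard error of 0.224 (edgeR quasi-likelihood, adjusted p = 1.42e-11). Its medullary segments in mouse 1057 divided as before, with 73.5 and 59.2 CPM in regions 2 and 4 against 207, 204 and 226 CPM in regions 3, 5 and 17. In mouse 1143 the probe had only 10 counts in all medullary segments, against 474 in all cortical ones. In region 11 of that mouse it was not counted among 55900 counts, where 3 counts would be 53.7 CPM.

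**Figure D2:**
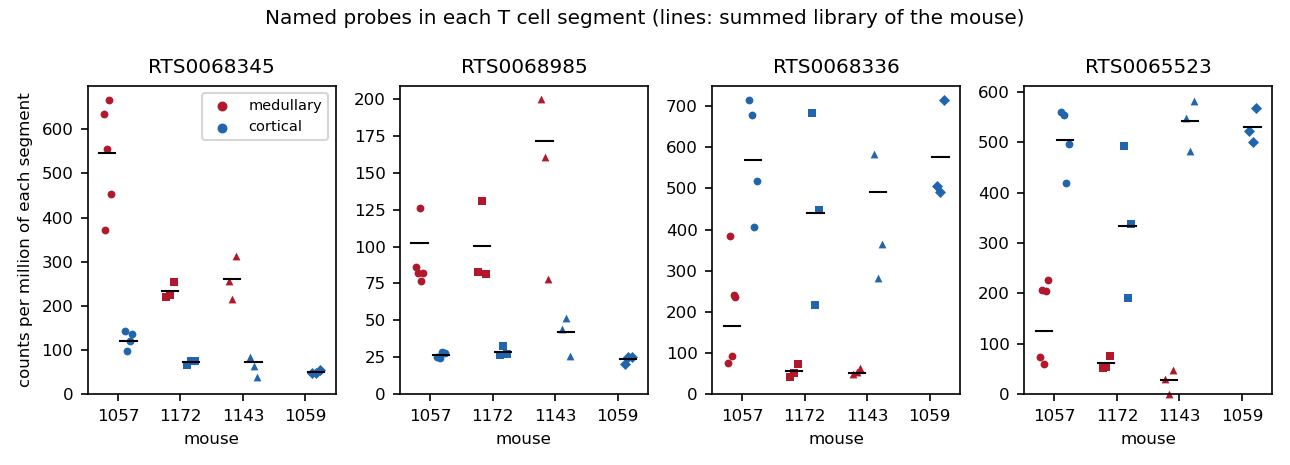
Level of the 4 probes (vertical axis, CPM) in each T cell segment, by mouse, with medullary segments in red to the left and cortical ones in blue to the right; black lines are the summed library of the mouse. For RTS0068345 and RTS0068985 every red point lies above every blue one, while for RTS0068336 and RTS0065523 the red points lie below the blue ones within each mouse and those of mouse 1057 divide into a lower and a higher group.

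The cortical segments of mouse 1059, which no test used, give the cortical level in another mouse. They held 47.0 to 55.1 CPM of RTS0068345, and their summed library held 23.8 CPM of RTS0068985, 577 CPM of RTS0068336 and 531 CPM of RTS0065523. All of these values lay beyond all 3 medullary libraries, on the side of the cortical ones. Over all called probes, mouse 1059 was on the cortical side of the midpoint between the mean medullary and mean cortical level for 984 of the 1039 lower probes (94.7%) and for 716 of the 952 higher probes (75.2%). No share over all probes is at hand to set beside these, and mouse 1059 shared its genotype and its pair in the titles with mouse 1057. The shares therefore only describe the called probes.

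Whether probes called in some mice also differ in another was examined by leaving each mouse out of the fit in turn. Probes called without mouse 1057 numbered 223 higher and 644 lower in medullary segments. In mouse 1057 itself, 219 of the 223 were above 0, with a median of 0.81 (log2), and 614 of the 644 were below 0, with a median of -0.44. Without mouse 1172 the fit called 317 higher and 230 lower, and 311 and 229 of them had the same direction in mouse 1172, with medians of 0.50 and -0.92. Without mouse 1143 it called 1207 higher and 1231 lower, and 796 and 965 of them had the same direction in mouse 1143, with medians of 0.23 and -0.60. Of all probes tested, 48.3% to 53.1% were above 0 in the mouse left out. The direction thus recurred least in mouse 1143, whose probes also varied most between segments. The lists were unlike, however. In the mice of the fit itself, the higher and lower probes called without mouse 1143 had medians of 0.39 and -0.41. Those called without mouse 1057 had medians of 0.71 and -0.78, and those without mouse 1172 had 0.74 and -0.94. The lower recurrence therefore cannot be assigned to mouse 1143 or its spread, since its list held smaller changes.

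A score placed each segment between the zones. It is the mean log2 CPM of the probes called higher in medullary segments less that of the probes called lower, with both sets taken from fits without the segment's own mouse. Segments of 1 mouse share an axis, so they can be set beside each other. In mouse 1143, however, the mean of the higher probes was 5.25 in medullary region 10 (230092 counts) and 4.58 in region 11 (55900 counts). The order of segments within a zone of that mouse may therefore follow depth. The level and the size of a difference also depend on which probes the other mice called. Medullary T cell segments scored -0.81 to -0.14 in mouse 1057, -0.12 to 0.07 in mouse 1172 and -0.15 to -0.05 in mouse 1143, against -1.94 to -1.56, -1.94 to -1.12 and -1.10 to -0.82 in their cortical segments. No medullary segment overlapped a cortical one of its mouse. The mean difference between zones was 1.26, 1.56 and 0.87 in mice 1057, 1172 and 1143. On axes of 200 higher and 200 lower probes it was 1.58, 1.80 and 1.83. Mouse 1143 thus had the smallest difference on the first axes and the largest on the second, so these sizes do not rank the mice. The 3 cortical segments of mouse 1059, on the axis of all 3 other mice, scored -1.91 to -1.74.

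Medullary segments of mouse 1057 formed 2 sets on this score. Regions 2 and 4 scored -0.14 and -0.16, and regions 3, 5 and 17 scored -0.81, -0.74 and -0.76. The epithelium segments cut from the same regions were ordered alike, at 0.01 and 0.02 in regions 2 and 4 against -0.31, -0.21 and -0.18 in regions 3, 5 and 17, though with a smaller gap. The gap was larger in the lower probes. Their mean level was 6.14 and 6.30 log2 CPM in regions 2 and 4 and 6.70, 6.55 and 6.68 in regions 3, 5 and 17, against 6.80 to 7.05 in the cortical segments. The mean of the higher probes was 6.00 and 6.14 in regions 2 and 4 and 5.89, 5.81 and 5.92 in regions 3, 5 and 17, against 5.08 to 5.24 in the cortical segments. Regions 3, 5 and 17 were thus close to regions 2 and 4 in the probes higher in medulla, and nearer to the cortex in the probes lower in medulla. The labels do not say where in the medulla each region lay, and the reason for the split was not tested.

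Cortical segments also varied. Region 8 of mouse 1172 scored -1.12, against -1.94 and -1.63 in regions 7 and 9, and its epithelium segment was again the least cortical of that mouse, at -0.90 against -1.80 and -1.31. T cell segments scored below the epithelium segment of the same region in 10 of 11 medullary and in 7 of 10 cortical regions, with a median gap of -0.15 and -0.14.

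**Figure D3:**
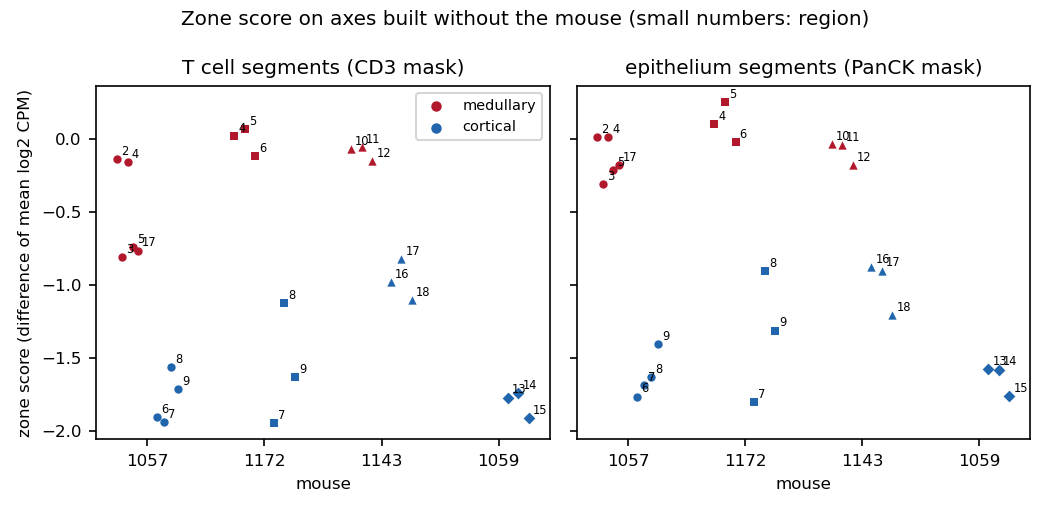
Zone score of each segment (vertical axis, difference of mean log2 CPM), by mouse, for T cell segments on the left and epithelium segments on the right; red marks medullary and blue cortical segments, and small numbers give the region. Red and blue points lie apart within every mouse, regions 3, 5 and 17 of mouse 1057 lie below regions 2 and 4 under both masks, and region 8 of mouse 1172 is the highest of its cortical points under both masks.

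Because the CD3 mask can take in neighbouring cells, the same zone comparison was set beside the epithelium segments of the same 3 mice, where 2107 of 20167 probes differed between medulla and cortex (10.4%). Of the probes higher in medullary T cell segments and tested in both, 465 of 951 were also higher in medullary epithelium (48.9%), 4 were lower and 482 did not pass there. Of the 1039 lower probes, 758 were also lower in medullary epithelium (73.0%), none was higher and 281 did not pass. Both masks come from the same regions of the same mice, so this overlap is no independent repeat.

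A probe that passes in T cell segments and not in epithelium is not thereby different between them, and the difference of both zone effects was tested in 1 fit over 12 libraries. It passed for 85 of 20174 probes (0.421%). At an unadjusted p below 0.05 there were 1186 (edgeR quasi-likelihood), close to the share of 0.05 expected when no probe differs. In 19 of the 85 the T cell change lay above the epithelium change and in 66 below it. Of the 763 probes called in T cell segments and not in epithelium, the difference passed for 2 (0.262%). The zone differences of the 3 mice did not overlap between masks for 38 of the 85, and for 9.32% of all probes.

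The 85 probes mostly had a larger zone difference in epithelium. Among the 66, 35 were higher in medulla under both masks with a smaller change in T cell segments, and 31 were higher in medullary epithelium and did not pass in T cell segments. Their median change was 0.27 (log2) in T cell segments and 1.15 in epithelium. The probe at the end of this list averaged 51.6 CPM in medullary and 21.5 CPM in cortical T cell libraries, against 168 and 22.3 CPM in medullary and cortical epithelium, so its change was 0.84 in T cell segments and 2.88 in epithelium. For most of the 66 the gap between masks was wider in mouse 1057 than in mouse 1172. Without mouse 1057 the difference passed for 5 probes, 3 of them among the 85. Without mouse 1172 or 1143 it passed for 43 and 69.

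The 19 others were more mixed. In 8 the T cell change did not pass while the probe was lower in medullary epithelium, and in 4 it was lower under both masks, less so in T cell segments. Only 7 were higher in medullary T cell segments, with 2 of them also higher in medullary epithelium, 2 not called there and 3 lower there. One of those higher under both masks averaged 64.8 CPM in medullary and 19.9 CPM in cortical T cell libraries, against 39.6 and 23.9 CPM in medullary and cortical epithelium, with log2 changes of 1.64 in T cell segments and 0.93 in epithelium. The other averaged 166 and 60.3 CPM in medullary and cortical T cell libraries, against 113 and 84.7 CPM in epithelium. For both, all 3 T cell differences lay above all 3 epithelium differences.

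The 3 probes that moved in opposite directions rest partly on single mice. The largest changed by 0.88 in T cell segments and by -3.19 in epithelium. It was a probe of low level, averaging 8.05 and 4.88 CPM in medullary and cortical T cell libraries and 8.87 and 34.6 CPM in epithelium. In mouse 1143, 3 counts are 8.57 CPM in the medullary T cell library and 28.9 CPM in the cortical epithelium library. Its epithelium difference was -3.74 in mouse 1057, and 0.64 and 0.47 in mice 1172 and 1143, so the opposite sign in epithelium came from mouse 1057. The other 2 changed by 0.51 and 0.47 in T cell segments and by -0.43 and -0.47 in epithelium, and in each the T cell difference was below 0 in 1 mouse, at -0.04 in mouse 1172 for the first and -0.38 in mouse 1143 for the second. Without mouse 1057 the difference of zone effects passed for 5 probes in all, without mouse 1172 for 43 and without mouse 1143 for 69.

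The 4 probes given by ID did not pass this test. Their changes in epithelium were 1.26 for RTS0068345, 2.02 for RTS0068985, -2.73 for RTS0068336 and -2.62 for RTS0065523, and the differences between masks (T cells less epithelium) were 0.58, -0.22, 0.15 and 0.05 with standard errors of 0.233, 0.209, 0.306 and 0.303. The adjusted p was 0.616 for RTS0068345 and 1.00 for the others (edgeR quasi-likelihood). A p above the threshold does not show that the masks were alike for these probes.

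**Figure D4:**
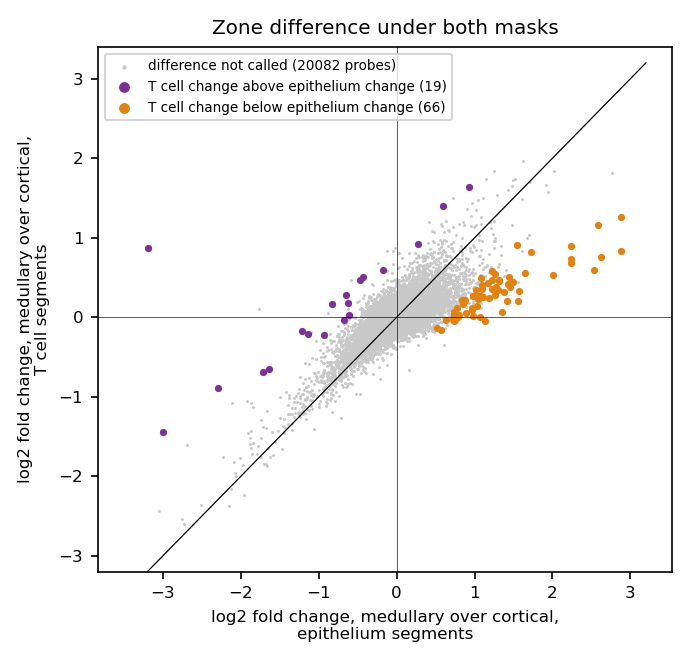
Log2 fold change of medullary over cortical segments under the CD3 mask (vertical axis) against that under the pan-cytokeratin mask (horizontal axis), 1 point per probe, with the line of equal change; purple marks the 19 probes whose T cell change lay above the epithelium change and orange the 66 below it. The orange points sit to the right where epithelium changed more, and 1 purple point at the far left stands at -3.19 in epithelium.

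Lists of probes for other cell types had to come from the data, since markers could not be looked up. They were taken from the thymoma segments of the series, which share no mouse with the 21 segments. The epithelium list holds 102 probes that were more than 1 log2 unit higher in thymoma epithelium than in thymoma T cell segments (0.506% of probes), and the B cell list 331 that were so in thymoma B cell segments (1.64%). The T cell list holds 763 probes higher in thymoma T cell segments than in both others. Thymoma T cells need not be like normal ones of either zone, so a list names where its probes were high and not which cells these were.

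The T cell list was lower in medulla. Of its 763 probes, 475 fell in medullary segments (62.3%) and 6 rose (0.786%), against 5.15% lower and 4.72% higher over all probes tested. Its median change was -0.40, at -0.36, -0.39 and -0.51 in mice 1057, 1172 and 1143, against 0.01 over all probes. Under the pan-cytokeratin mask of the same mice the median was -0.49, so this fall was not particular to T cell segments. These 475 made up 45.7% of all lower probes. RTS0068336 and RTS0065523 are both among them. The list took 4.20% to 7.25% of counts in medullary segments, with a median of 4.83%, against 6.23% to 10.1% in cortical segments, with a median of 8.39%. It parted the zones within each mouse, and its highest medullary shares were those of regions 3, 5 and 17 of mouse 1057, at 7.25%, 6.32% and 6.95%, while regions 2 and 4 were at 4.85% and 5.25%.

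The B cell list was higher in medulla. Of its 331 probes, 158 rose in medullary segments (47.7%) and 5 fell (1.51%), against 4.72% higher and 5.15% lower over all probes tested. Its median change was 0.27, at 0.35, 0.22 and 0.09 in the 3 mice. Under the pan-cytokeratin mask the median was 0.21, so this rise was not particular to T cell segments. The list took 1.92% to 2.81% of counts in medullary segments and 1.49% to 1.87% in cortical segments, so the ranges did not overlap. It took 3.33% to 6.00% in the 7 B cell segments of the same 3 mice and up to 6.36% in those of mouse 1059. B cell probes thus moved with the zone in all 3 mice, and their part in the 952 higher probes was not tested. RTS0068345 is on this list and on the epithelium list, while RTS0068985 is on none of the 3.

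The epithelium list gave no common direction. Of the 101 probes tested, 30 rose in medullary segments (29.7%) and 16 fell (15.8%). Over all probes tested these shares were 4.72% and 5.15%, so the list was called more often in both directions. Its median change was 0.14, at 0.21 in mouse 1057, 0.03 in mouse 1172 and -0.05 in mouse 1143. Under the pan-cytokeratin mask the median was 0.03. Its share of counts was 0.553% to 1.47% in medullary and 0.572% to 1.07% in cortical T cell segments, against 0.743% to 2.16% and 1.20% to 3.16% under the pan-cytokeratin mask of the same zones. In mouse 1057 its share was 1.42%, 1.47% and 1.22% in regions 3, 5 and 17 and 1.03% and 0.961% in regions 2 and 4. The regions with a more cortical score therefore also held more of the epithelium list, and the part of this in their score was not tested. Outside both the epithelium and the B cell list lay 769 of the 952 higher probes (80.8%) and 1020 of the 1039 lower probes (98.2%), against 97.9% of all probes tested.

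**Figure D5:**
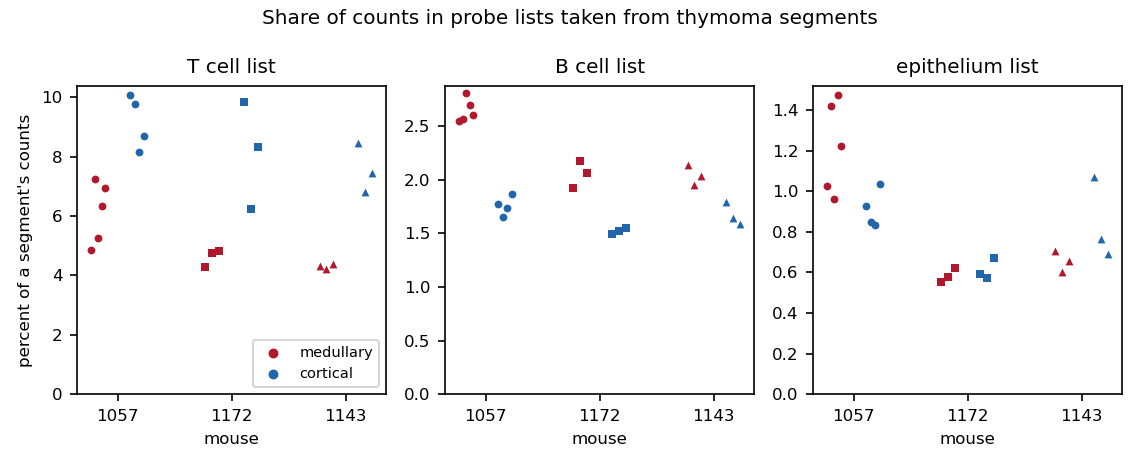
Share of each T cell segment's counts (vertical axis, percent) in the T cell, B cell and epithelium lists taken from thymoma, by mouse, with medullary segments in red to the left and cortical ones in blue to the right. Medullary points lie below cortical points of their mouse for the T cell list and above them for the B cell list, while the epithelium list overlaps between zones in every mouse.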

How the data were processed

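Each segment has 1 deposited file of counts per probe, not normalized, which GeoMx_NGS_Pipeline 2.0.0 wrote in DCC format 0.02, per the file headers. Some of these deposited files give the count column no usable name (other values in the record of units), and whole numbers were found there too. Background was not subtracted, and probes that a file does not list were set to 0. The headers name the pipeline and do not say how it assigned reads to probes.

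The mouse was the replicate. Segments of a mouse and class were added up to 1 library. After filterByExpr and TMM scaling, probes were tested with the edgeR (4.0.16, R 4.3.3) quasi-likelihood test with the mouse as a block, at a Benjamini-Hochberg adjusted p below 0.05. The difference of zone effects used 1 fit with the mouse within mask as a block. Standard errors are the size of the log2 fold change divided by the square root of F. Printed levels are plain CPM, so their ratios differ slightly from TMM-scaled fold changes, and log2 CPM of segments has a prior count of 2. Both zones came from the same mice. Deviations of a mouse's 2 libraries from the class means correlated over probes at 0.755, 0.710 and 0.746 in mice 1057, 1172 and 1143, against at most 0.602 between mice, a description over probes with no test.

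Named probes are the 2 largest and 2 smallest fold changes among those past the threshold, above the median mean log2 level of the fit (5.02), with the same direction in 3 mice and separate libraries. That rule and the lists were chosen with earlier results of these data known. Thymoma segments served only to define lists, by edgeR with the mouse as a block. Gene lists and negative control probes could not be used without probe names. Alternatives were other scalings, DESeq2 (1.42.0), limma (3.58.1), other filters, no block, means over segments, thinning and each mouse left out. The code was tested on simulated data.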

Additional observations from a re-analysis of the deposited data

Results flagged for a closer look

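RTS0068985 stood at 126 CPM in region 4 of mouse 1057, against 76.7 to 86.3 CPM in the other 4 medullary T cell segments of that mouse, a gap large for the group's range. It was the 1 case among 23 groups of segments tested in this way, and chance gives about 1 in 20. Region 4 was the deepest of the 5, with 3595278 counts.

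The zone effect differed between T cell segments and epithelium for 85 probes by a test of the difference (edgeR quasi-likelihood). For 3 of them, the probe was higher in medullary T cell segments and lower in medullary epithelium, and in the largest of the 3 the epithelium change rested on mouse 1057.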

How the results depend on the processing

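The count of 1991 probes was 2017 with upper-quartile scaling, 2020 with DESeq2 size factors and 1993 without a filter, and 1523 after thinning (669 higher, 854 lower). It was 552 with DESeq2 (167 higher, 385 lower), 1048 with limma-voom and quantile normalization, 1 with no replicate block, 0 with means over segments, and 867, 547 and 2438 without mouse 1057, 1172 and 1143 in turn. The difference of zone effects passed for 41 probes with the mouse as a single additive replicate block, 0 with no replicate block (107 at an unadjusted p below 0.05 in that fit), 4 with DESeq2, and 5, 43 and 69 without these mice. Means over segments moved the median of all probes to -0.14 and the list medians to -0.064 (epithelium), 0.090 (B cells) and -0.58 (T cells), which relative to that shift are 0.07, 0.23 and -0.45. The zone score difference, 1.23 on average, was 1.74 on an axis of 200 and 200 probes. Probes whose segments did not overlap numbered 39, and 182, 110 and 460 without mouse 1057, 1172 and 1143. The 4 named probes passed in 10 of 12 alternatives, failed with no block and with means over segments, and kept their direction in all 12. The cause of these shifts was not tested. Mouse 1143 limits what single segments can show, 3 mice limit exact tests to p = 0.25, and intervals of counting error do not cover slide or section.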

Other observations

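B cell segments of control thymus, which enter no test here, were placed on the same zone score. The 1 B cell segment of mouse 1057 scored -0.35, those of mouse 1172 -0.07 to 0.10, those of mouse 1143 -0.25 to 0.06 and those of mouse 1059 -0.89 to -0.52. In mice 1172 and 1143 these values lay within or near the range of the medullary T cell segments, from -0.12 to 0.07 and from -0.15 to -0.05. The B cell segments of mouse 1143 held only 8919 to 42278 counts under 130 to 562 nuclei, so their scores are coarse. Mouse 1059 had no medullary T cell segment, and its B cell segments lay above its cortical T cell segments, which scored -1.91 to -1.74. The labels do not give the zone of B cell segments.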
